A study of Homo sapiens with 6 samples.

Results

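Long intergenic noncoding RNA genes, whose symbols start with LINC followed by digits, were examined in A549 cells given Japoflavone B, a compound, or DMSO alone. The deposited table lists 2244 such genes among 61806. The 198 members described here were chosen by their counts: at least 60 summed over the 6 libraries. Of the others, 1360 had no count and 686 had 1 to 59. A549 is an established human lung adenocarcinoma line, labelled wild type in both groups. The cells were seeded for 24 h and then kept for 24 h with DMSO, or with Japoflavone B at a dose of 40 whose unit the labels do not state, with 3 libraries in each group. The treated libraries carry the code LE-532 in their titles, which the labels do not explain. PARP1 inhibition is the activity that the study's title gives the compound, and its design compares RNA levels of treated and control cells.

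LINC is a naming scheme, not a functional family. Such a gene is transcribed outside protein-coding genes, its RNA is usually spliced and polyadenylated, and it has no long open reading frame. Many of these RNAs are restricted to few cell types and are kept at low levels in the nucleus. For most of them no role is established, some act on nearby genes or as scaffolds for proteins, and a few have turned out to encode small peptides. Because poly(A) RNA was selected, transcripts without a tail are not measured.

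The count limit used the sum over both groups, and members near it are thinly covered. Just inside it stood LINC01465 with 61 counts (56 after DMSO, 5 after Japoflavone B), LINC01564 with 60 (24 and 36) and LINC01275 with 60 (28 and 32). Just outside were LINC01036 with 59 counts (47 and 12), LINC02026 with 58 (40 and 18) and LINC02643 with 58 (26 and 32). Fewer than 30 DMSO counts were found in 20 members and fewer than 30 Japoflavone B counts in 37, so these reached the limit mostly through their higher group, and they include 42 of the 111 members called below. Counts over the members are therefore a description of this set.

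The libraries held 15298531 to 21744407 counts. Pearson correlations of log2 CPM (counts set relative to library size) were 0.990 to 0.992 within groups and 0.926 to 0.931 between groups. Of 6 epithelial markers, the keratins KRT7, KRT8 and KRT18 were above 80 FPKM (counts scaled by exonic length and library total) in every library. The adhesion gene CDH1 had 2.81 to 12.3 FPKM, KRT19 had 2.42 to 5.23 and EPCAM 0.55 to 1.08. All 6 had lower means after Japoflavone B, among them KRT8 (257 and 83.9 FPKM), KRT18 (464 and 130.0 FPKM) and CDH1 (11.7 and 3.03 FPKM). Of 4 alveolar markers, SFTPC, SFTPB and NKX2-1 were at or below 0.05 FPKM in every library and NAPSA had 0.18 to 0.33 FPKM. The leukocyte gene PTPRC had 2 counts in all, and CD3E and VWF had none, whereas the collagen gene COL1A1 had 4.64 FPKM after DMSO and 0.473 after Japoflavone B. The part of these markers in the changes of the members was not tested. The labels do not say whether libraries come from separate cultures, so each p-value reflects only how far these 6 libraries spread, which may be technical.

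The DNA around the start of 6 members is shown first, so that the sequence at genes with large rises, large falls and no call can be compared. They were picked after their values were seen, and their RefSeq start lies within 60 bases of the start in the deposited table. Each window runs from 250 bases before to 50 bases after the RefSeq start, read 5′ to 3′ on the gene's strand (GRCh38.p14). Capitals mark matches, on either strand, to 10 motifs searched: AP-1 (TGANTCA), the cyclic AMP element CRE (TGACGTCA), the ATF4-type element CARE (TGATGNAA), the NRF2 element (TGACNNNGC), EGR (GNGTGGGCG), the CCAAT box (written CCAAT), the TATA box (written TATAAA), the E-box (CACGTG), the cell cycle element CHR (TTTGAA) and the p53 half-site. The AP-1, CRE and NRF2 patterns share letters, so a stretch can count for more than 1 of them. LINC01629, LINC02447 and LINC00665 were higher after Japoflavone B. LINC01629 is on the plus strand of chromosome 14 (chr14:76959388-76959687), and its window holds 2 AP-1 matches, 1 NRF2 match and 1 p53 half-site. LINC02447 is on the minus strand of chromosome 4 (chr4:7103327-7103626), with 1 CCAAT match read on the opposite strand. LINC00665 is on the minus strand of chromosome 19 (chr19:36331669-36331968), with 3 CCAAT matches and 1 NRF2 match.
LINC01629: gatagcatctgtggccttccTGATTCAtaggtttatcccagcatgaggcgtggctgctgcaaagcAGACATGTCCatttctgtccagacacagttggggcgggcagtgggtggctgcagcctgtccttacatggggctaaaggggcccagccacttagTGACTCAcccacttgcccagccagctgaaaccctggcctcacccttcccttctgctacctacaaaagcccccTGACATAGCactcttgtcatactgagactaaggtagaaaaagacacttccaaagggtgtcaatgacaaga
LINC02447: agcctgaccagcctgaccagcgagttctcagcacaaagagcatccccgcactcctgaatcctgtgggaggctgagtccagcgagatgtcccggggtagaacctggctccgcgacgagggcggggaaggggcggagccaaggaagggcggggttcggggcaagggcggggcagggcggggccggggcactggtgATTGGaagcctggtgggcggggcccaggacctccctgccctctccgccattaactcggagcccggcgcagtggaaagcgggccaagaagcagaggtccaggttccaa
LINC00665: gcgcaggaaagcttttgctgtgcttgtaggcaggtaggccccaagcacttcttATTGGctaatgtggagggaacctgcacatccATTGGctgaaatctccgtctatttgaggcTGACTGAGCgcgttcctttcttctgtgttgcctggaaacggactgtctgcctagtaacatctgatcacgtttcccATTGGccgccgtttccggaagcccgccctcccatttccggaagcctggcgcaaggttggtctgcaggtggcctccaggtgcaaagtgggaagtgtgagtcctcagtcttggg

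LINC00173 and LINC00261 were lower, and LINC01234 is the most deeply covered of the 4 uncalled members with the smallest change among those of at least 300 counts. LINC00173 is on the plus strand of chromosome 12 (chr12:116533172-116533471), and no motif searched is in its window. LINC00261 is on the minus strand of chromosome 20 (chr20:22578593-22578892), with 1 NRF2 match and 1 TATAAA match. LINC01234 is on the minus strand of chromosome 12 (chr12:113773634-113773933), with 1 NRF2 match and 3 CCAAT matches. A match is a description of letters, not a binding site.
LINC00173: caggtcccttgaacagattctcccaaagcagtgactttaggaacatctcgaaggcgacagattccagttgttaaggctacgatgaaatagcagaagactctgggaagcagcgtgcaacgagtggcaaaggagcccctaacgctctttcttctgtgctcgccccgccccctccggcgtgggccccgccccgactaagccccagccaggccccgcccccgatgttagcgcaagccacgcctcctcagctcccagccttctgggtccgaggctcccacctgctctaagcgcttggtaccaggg
LINC00261: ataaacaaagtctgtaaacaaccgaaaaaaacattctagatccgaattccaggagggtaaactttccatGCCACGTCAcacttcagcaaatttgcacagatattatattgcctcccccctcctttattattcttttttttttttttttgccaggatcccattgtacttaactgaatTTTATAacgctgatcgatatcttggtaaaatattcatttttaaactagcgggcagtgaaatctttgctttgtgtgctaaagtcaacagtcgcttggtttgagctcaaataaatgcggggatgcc
LINC01234: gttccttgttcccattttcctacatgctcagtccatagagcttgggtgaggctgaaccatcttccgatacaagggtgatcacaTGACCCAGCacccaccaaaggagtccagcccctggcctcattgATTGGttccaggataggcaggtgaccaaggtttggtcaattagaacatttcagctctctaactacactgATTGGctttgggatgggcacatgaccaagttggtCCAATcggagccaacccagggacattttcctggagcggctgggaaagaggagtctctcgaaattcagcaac

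As a whole the members were thinly covered. Their mean over the 6 libraries ran from 0.0367 to 16.2 FPKM with a median of 0.538, and 137 of 198 were under 1 FPKM, 55 between 1 and 5, and 6 at 5 or more. Summed counts had a median of 171.5 and a maximum of 6655, in LINC00963. The top 10 held 39.4% of the counts of the set. All members together took 0.108%, 0.105% and 0.0975% of counts in the DMSO libraries and 0.0903%, 0.0865% and 0.0897% in the Japoflavone B libraries. The share was thus lower in each treated library than in each DMSO library, at 0.103% ± 0.00546 and 0.0888% ± 0.00204 (SD, n = 3). These are shares of unscaled library totals. The factors that scale the totals for the fold changes were 1.029 to 1.043 for DMSO and 0.957 to 0.970 for Japoflavone B. On totals scaled by them the difference is smaller. In such bulk libraries, fewer cells that make an RNA and less of it per cell cannot be told apart.

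More members were lower than higher after Japoflavone B, and many did not pass the test. Of 195 members tested, 45 rose and 66 fell (edgeR quasi-likelihood test, Benjamini-Hochberg adjusted over 16082 genes), or 23.1% and 33.8%. Among all genes tested the shares were 34.7% higher and 35.4% lower, and 70.0% either way against 56.9% of the members. The other 84 members did not pass. The median log2 fold change of the tested members was -0.21, with quartiles of -1.17 and 0.52. Over all genes tested the median was -0.004, with quartiles of -0.59 and 0.49. At 60 to under 200 counts the median was -0.23 in members and -0.15 in other genes. It was -0.09 and -0.15 from 200 to under 1000 counts, and -0.25 and 0.05 at 1000 or more. Setting LINC01823, which had no DMSO count, at its lower bound could not move the member median, since its fitted value and the bound lie above it. In 3 members, LINC00304, LINC00592 and LINC01977, counts were too low for the filter, and with a filter of 60 counts in total for all genes they had log2 fold changes of -1.49, -1.25 and -2.0 (edgeR adjusted p = 0.0102, 0.0261 and 0.0037). That fit called 46 of 198 members higher (23.2%) and 69 lower (34.8%), beside 35.1% and 35.4% of 15792 genes.

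Changes of at least 2-fold were found in 28 members that rose and 55 that fell. Those are 14.4% and 28.2% of the members tested, beside 9.67% and 15% of all genes. These shares were not split by depth, and members have fewer counts than most genes tested. At 60 to under 200 counts, the median absolute log2 fold change was 0.798 in members and 0.795 in other genes. It was 0.729 and 0.661 from 200 to under 1000 counts, and 0.591 and 0.452 at 1000 or more. In log2 CPM the groups did not overlap in 48 members with higher values after Japoflavone B (24.6%, beside 36% of all genes tested) and in 68 with lower values (34.9%, beside 36.4%). Together these are 59.5% of the members and 72.4% of all genes tested. Of the members called, 5 had overlapping groups, and 10 members whose groups were apart were not called. Risen members reached 0.153 to 21.7 FPKM after Japoflavone B with a median of 0.850. Fallen members started from 0.167 to 20.1 FPKM after DMSO with a median of 1.20.

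**Figure D1:**
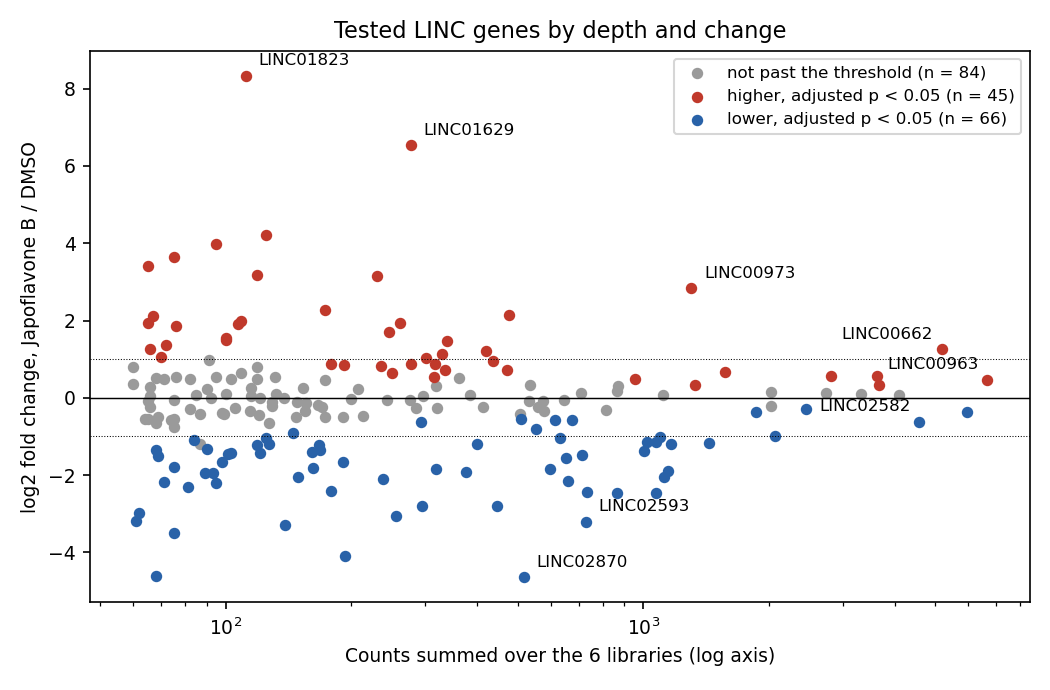
Each point is 1 of the 195 tested LINC genes, with its counts summed over the 6 libraries on a log axis and its log2 fold change (Japoflavone B over DMSO) on the vertical axis, dotted lines marking 2-fold. Red points (45) rose and blue points (66) fell in the edgeR test, grey points (84) did not pass, and the fitted value of LINC01823 has no DMSO count behind it and depends on the prior count.

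Depth went with the share called, in the members as in other genes. Members with 60 to under 200 counts were called in 50 of 106 cases (47.2%, with 17.9% higher and 29.2% lower), and other tested genes of that range in 45.0% (18.6% and 26.4%). From 200 to under 1000 counts the shares were 63.9% of 61 members (29.5% higher and 34.4% lower) and 64.0% of 2883 other genes (26.3% and 37.6%). At 1000 counts or more they were 78.6% of 28 members and 79.3% of 10007 other genes. The split there was 28.6% higher and 50% lower in the members, and 41.9% higher and 37.4% lower in the other genes, a difference that was not tested. The median standard error of the log2 fold change was 0.34 in the members and 0.10 over all genes tested. By range it was 0.42 for members and 0.41 for others in the lowest range, 0.22 and 0.21 in the middle one, and 0.11 and 0.07 in the highest.

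**Figure D2:**
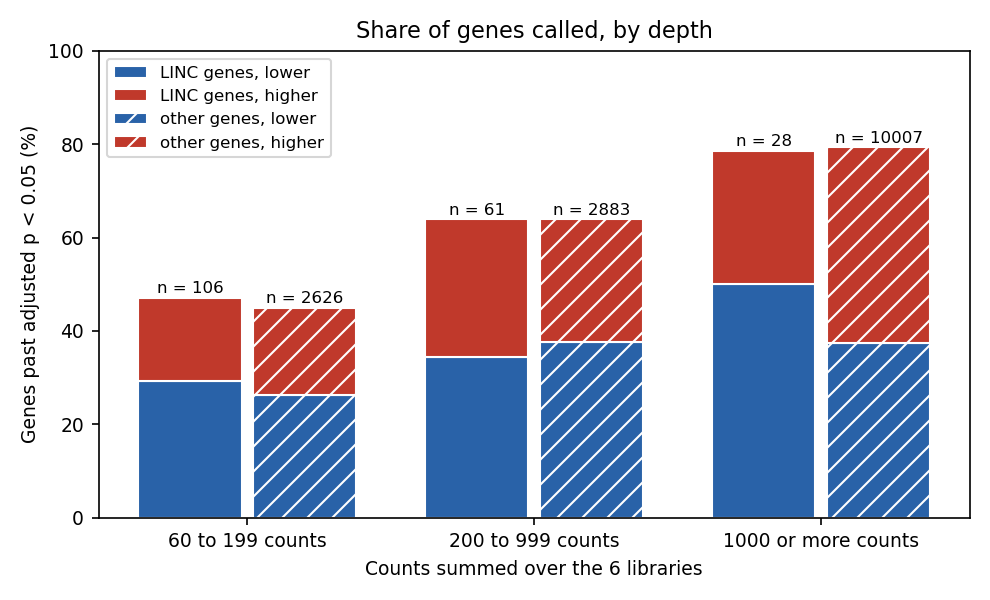
Bars give the percent of genes past the adjusted threshold in 3 ranges of summed counts, split into lower (blue) and higher (red), with plain bars for LINC genes, hatched bars for the other tested genes and the number of genes above each bar. Plain and hatched bars end at like heights in each range, from 47.2% and 45.0% in the lowest range to 78.6% and 79.3% in the highest.

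Among the 8 most abundant members the order of levels was rearranged. LINC02582 (chromosome 18, 73324941 to 73349879, GRCh38, as are all gene positions below) led after DMSO, with 22.96, 19.02 and 18.41 FPKM, and had 11.92, 12.44 and 12.49 FPKM after Japoflavone B. Its groups did not overlap, and it fell by 0.61 ± 0.08 on the log2 scale (SE; edgeR adjusted p = 1.47e-07). On its 6 log2 CPM values alone, a two-sided exact permutation gave p = 0.1, the smallest that 3 against 3 libraries allow. LINC02864 (73151241 to 73264480, the same chromosome, other strand) had 6.72, 6.23 and 6.36 FPKM and then 4.36, 4.49 and 5.17. It fell by 0.36 ± 0.07 (adjusted p = 6.21e-05). Both genes of this pair thus fell, by less than 2-fold.

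LINC00973 (chromosome 3, 98981058 to 98983096) was the most abundant member after Japoflavone B. The DMSO libraries had 3.09, 3.11 and 3.67 FPKM and the treated libraries 21.08, 23.26 and 20.8 FPKM. All treated values were above 20 and all DMSO values under 4, a rise of 7.13-fold (log2 SE 0.13; edgeR adjusted p = 7.86e-17). By mean FPKM it went from rank 18 among the 198 members to rank 1. It is a spliced gene of 2 exons in GENCODE 29, and its span overlaps that of another listed gene on the same strand, which had fewer than 60 counts.

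The other abundant members moved less. LINC00294, with a single exon in GENCODE 29, had 8.89, 8.89 and 9.85 FPKM and then 10.13, 11.27 and 11.11 FPKM, a rise of 0.34 ± 0.08 log2 (edgeR adjusted p = 4.66e-04), and genes with at least 60 counts overlap it on both strands. LINC02035 rose by 0.57 ± 0.09 log2 (3.62, 4.2 and 3.77 against 5.12, 5.33 and 5.59 FPKM; adjusted p = 1.77e-06) and LINC00963 by 0.47 ± 0.07 (3.35, 4.13 and 3.63 against 4.82, 4.61 and 4.89 FPKM; adjusted p = 1.14e-06). LINC01836 fell by 1.15 ± 0.13 log2, from 7.62, 7.35 and 7.07 to 3.26, 2.7 and 3.28 FPKM (adjusted p = 1.67e-08). In these 4 genes the groups were apart. LINC00674, a transcribed pseudogene in GENCODE 29, did not pass, with 11.4, 8.21 and 7.96 FPKM after DMSO and 7.29, 7.32 and 7.66 after Japoflavone B (log2 fold change -0.21 ± 0.12, adjusted p = 0.110). DMSO replicate 1 was the high value there. LINC00674 overlaps 3 genes with at least 60 counts on its own strand and 1 on the other. The gene was called lower with library totals as the scaling (adjusted p = 0.0226) and without DMSO replicate 2 or 3 (adjusted p = 0.0456 and 0.0283).

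**Figure D3:**
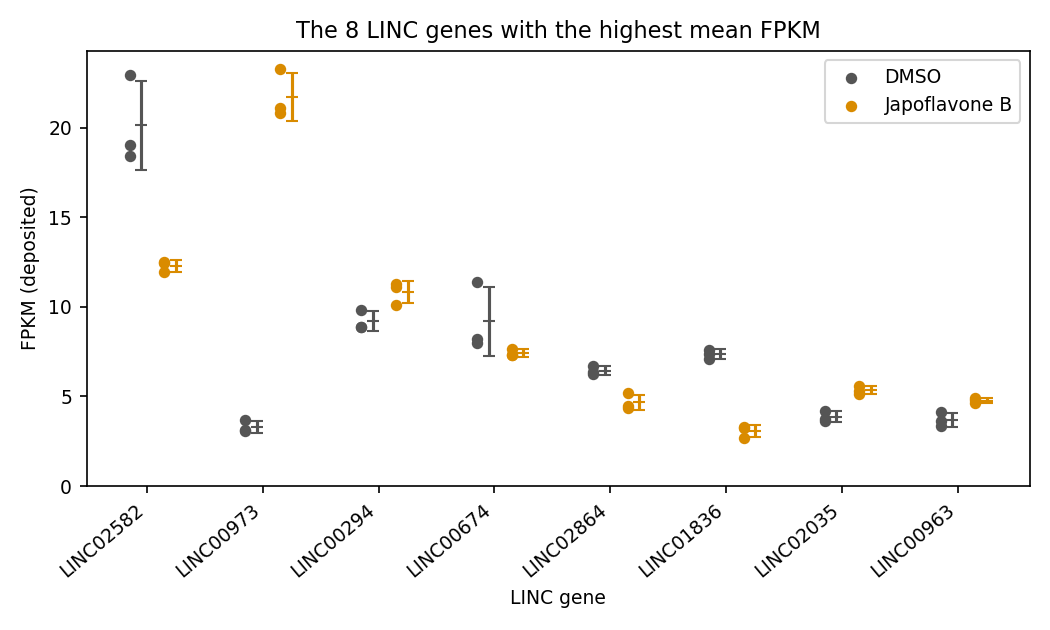
Points are deposited FPKM of single libraries for the 8 LINC genes with the highest mean, grey for DMSO and orange for Japoflavone B, with bars for the mean ± SD of 3 libraries. LINC00973 rises from under 4 to over 20 FPKM while LINC02582 falls from 18.41 or more to 12.49 or less.

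The other 5 members among the 10 highest after DMSO, named after their values were seen, all fell. Picking by a high DMSO level, without the 8 highest means over both groups, favours members that fell. LINC00842 went from 5.49 to 1.23 FPKM on average, LINC00857 from 5.19 to 1.85, LINC01963 from 5.12 to 0.873, LINC00997 from 4.95 to 0.847 and LINC02506 from 4.88 to 2.26. Their log2 fold changes were -2.06, -1.39, -2.46, -2.46 and -1.0 (edgeR adjusted p = 2.29e-12, 6.39e-10, 2.61e-14, 1.98e-12 and 2.93e-07). By rank LINC01963 went from 8 to 56 and LINC00997 from 9 to 61 among the 198 members. LINC00842 overlaps 2 genes with at least 60 counts on its own strand, and LINC00997 overlaps 1 on the other strand. Reads of these genes cannot be assigned with certainty.

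A further 7 members with at least 1000 counts are named here after their values were seen. LINC02086 had 4.07, 3.84 and 3.32 FPKM after DMSO and 1.57, 1.6 and 1.45 after Japoflavone B, and it fell by 1.19 ± 0.13 log2 (edgeR adjusted p = 4.57e-09). LINC00641 and LINC00205 fell by 0.36 ± 0.11 and 0.29 ± 0.10 log2 (adjusted p = 0.00468 and 0.00973), and LINC02210 rose by 0.56 ± 0.08 (adjusted p = 3.41e-07). In these 4 genes the groups were apart. LINC02693, LINC01278 and LINC02987 overlapped between groups and did not pass, at 0.09 ± 0.08, 0.11 ± 0.11 and 0.14 ± 0.11 log2 (adjusted p = 0.34, 0.354 and 0.254). Without DMSO replicate 1, LINC01278 and LINC02987 were called higher (adjusted p = 0.0462 and 0.0234). LINC02693, which GENCODE 29 classes as protein-coding, had 1.86, 1.71 and 1.52 FPKM after DMSO and 1.7, 1.76 and 1.62 after Japoflavone B.

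Falls of more than 2-fold were also found in members of middle depth, named after their values were seen. LINC00632, the host gene of the circular RNA CDR1as, had 0.3, 0.4 and 0.27 FPKM after DMSO and 0.05, 0.1 and 0.06 after Japoflavone B, and it fell by 2.15 ± 0.21 log2 (edgeR adjusted p = 7.96e-10). The circular RNA has no poly(A) tail and was not measured. LINC02615 had 1.78, 1.59 and 1.54 FPKM after DMSO and 0.31, 0.3 and 0.24 after Japoflavone B, and it fell by 2.43 ± 0.18 log2 (adjusted p = 1.22e-12). LINC01504 had 1.86, 1.64 and 1.54 FPKM after DMSO and 0.54, 0.31 and 0.43 after Japoflavone B, and it fell by 1.85 ± 0.19 log2 (adjusted p = 2.10e-09). All 3 had groups apart, with each treated library under 0.6 FPKM. LINC01547 fell by 0.57 ± 0.20 log2 (adjusted p = 0.0122) with 1.75, 1.15 and 1.12 FPKM after DMSO and 0.84, 1.05 and 0.67 after Japoflavone B. Its groups overlapped in log2 CPM, though not in FPKM, and the call was lost without DMSO replicate 1 (adjusted p = 0.159) or Japoflavone B replicate 3 (0.0905).

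The steepest rises began from almost no signal. LINC01823 (ENSG00000224655, chromosome 2, 121779133 to 121809962) had no count in any DMSO library and 36, 30 and 46 counts after Japoflavone B. Against a floor of 3 counts over the DMSO group it was at least 40.0-fold higher per library total (edgeR adjusted p = 9.16e-10). LINC01629 (ENSG00000258602, chromosome 14, 76959636 to 76965802) had 0, 1 and 2 counts and then 95, 68 and 112. The ratio per library total was 98.2 with an exact 95% binomial interval of 33.3 to 479, which covers counting error only (adjusted p = 4.47e-13). At 6.69, 6.04 and 8.48 FPKM it became the member with the fifth highest level, from rank 188. It overlaps 1 gene with at least 60 counts on the other strand. Both LINC01823 and LINC01629 thus had at most 2 counts in any DMSO library and at least 30 in every treated library.

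Others also rose from a low DMSO level, some with few or no counts in single DMSO libraries. The genes named among the rises and falls are the 10 highest and the 10 lowest fold changes among called members whose groups were apart and whose higher group had at least 0.2 FPKM. LINC02995 (chromosome 5, 173578275 to 173585068) had 3, 4 and 0 counts after DMSO and 37, 37 and 44 after Japoflavone B, 18.6-fold higher (log2 SE 0.49; edgeR adjusted p = 1.44e-08). LINC02447 had 3, 2 and 1 counts and then 33, 17 and 19, 12.4-fold higher (log2 SE 0.54; adjusted p = 9.6e-07). In neither did the groups overlap. LINC02340 had 4, 2 and 0 counts and then 31, 9 and 19, 10.6-fold higher (log2 SE 0.61; adjusted p = 1.81e-05). It lies 74 bases from RPL21, a ribosomal protein gene that also rose (1.82 log2), and the part of that gene in its counts was not tested. LINC00595 changed by 3.99 ± 0.53 log2 from 6 to 89 counts per group (adjusted p = 1.48e-07) but lay under 0.2 FPKM. LINC01844 had 5, 7 and 1 counts and then 42, 16 and 48, 9.08-fold higher, with a treated spread of 0.59, 0.28 and 0.72 FPKM (log2 SE 0.47; adjusted p = 1.03e-06).

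LINC00663 (chromosome 19, 19757366 to 19776423) rose from 0.06, 0.07 and 0.21 to 0.93, 1.07 and 0.64 FPKM (8.82 times as much, SE 0.37 log2, adjusted p = 1.51e-08 by edgeR). LINC00665, whose RNA has been reported to encode a small peptide, rose from 10, 16 and 7 counts to 51, 42 and 47, 4.87-fold higher (log2 SE 0.33; adjusted p = 8.20e-07). LINC01588 rose from 33, 39 and 26 counts to 156, 105 and 118, 4.42-fold higher (log2 SE 0.20; adjusted p = 1.95e-10). Even after the rise LINC00665 and LINC01588 stayed at or under 0.42 FPKM in every library.

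The lowest fitted fold change was that of LINC02870 (ENSG00000180066, chromosome 10, 132444327 to 132449408). The DMSO libraries had 4, 4.32 and 3.7 FPKM (178, 201 and 121 counts) and the treated libraries 0.21, 0 and 0.2 FPKM (9, 0 and 8 counts), 25-fold lower (log2 SE 0.32; edgeR adjusted p = 2.68e-13). It was rank 11 of 198 by FPKM after DMSO and rank 170 after Japoflavone B. It has 4 exons in GENCODE 29 and overlaps no other listed gene. LINC02593 (chromosome 1, 916865 to 921016) likewise fell from 2.42, 3.11 and 2.76 to 0.19, 0.35 and 0.3 FPKM, 9.23-fold lower (log2 SE 0.21; adjusted p = 7.46e-14). For both, every treated library was under 0.4 FPKM and every DMSO library above 2.

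LINC01529, a transcribed pseudogene in GENCODE 29, had 14, 35 and 17 counts after DMSO and 1, 1 and 0 after Japoflavone B. Per library total it was 30.8 times lower, with an exact 95% binomial interval of 8.19 to 259.5 for counting error only (edgeR adjusted p = 2.13e-06). It overlaps ARHGAP33, a gene with at least 60 counts on the opposite strand. ARHGAP33 also fell, from 2.04 ± 0.378 to 0.323 ± 0.0808 FPKM (SD, n = 3; -2.53 log2, edgeR adjusted p = 4.66e-12). Since no strand setting is stated, reads of the pair cannot be told apart, and the part of ARHGAP33 in the counts of LINC01529 was not tested. LINC02532 fell from 66, 73 and 45 counts to 2, 2 and 5, 17.1-fold lower (log2 SE 0.41; adjusted p = 8.21e-10). LINC01914 fell from 19, 34 and 17 counts to 1, 2 and 2, 11.3-fold lower (log2 SE 0.57; adjusted p = 3.95e-06). In each of these 3 LINC genes no treated library had more than 5 counts.

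LINC00858 fell from 66, 34 and 28 counts to 5, 0 and 6, 9.84-fold lower (log2 SE 0.50; edgeR adjusted p = 1.50e-06), and LINC01465, 1 of the 3 members at the count limit, from 21, 25 and 10 to 3, 1 and 1, 9.06-fold lower (log2 SE 0.59; adjusted p = 2.80e-05). LINC02331 fell from 1.77, 1.51 and 1.98 to 0.11, 0.16 and 0.3 FPKM, 8.34-fold lower (log2 SE 0.33; adjusted p = 3.73e-09). LINC02747 went from 13, 22 and 21 counts to 3, 0 and 3, 7.88-fold lower (log2 SE 0.61; adjusted p = 1.00e-04). LINC00173 went from 1.53, 2.17 and 1.43 to 0.27, 0.32 and 0.1 FPKM, 6.97-fold lower (log2 SE 0.32; adjusted p = 9.22e-09). All 5 had groups apart. Genes with at least 60 counts overlap LINC01465 and LINC02331 on the other strand.

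**Figure D4:**
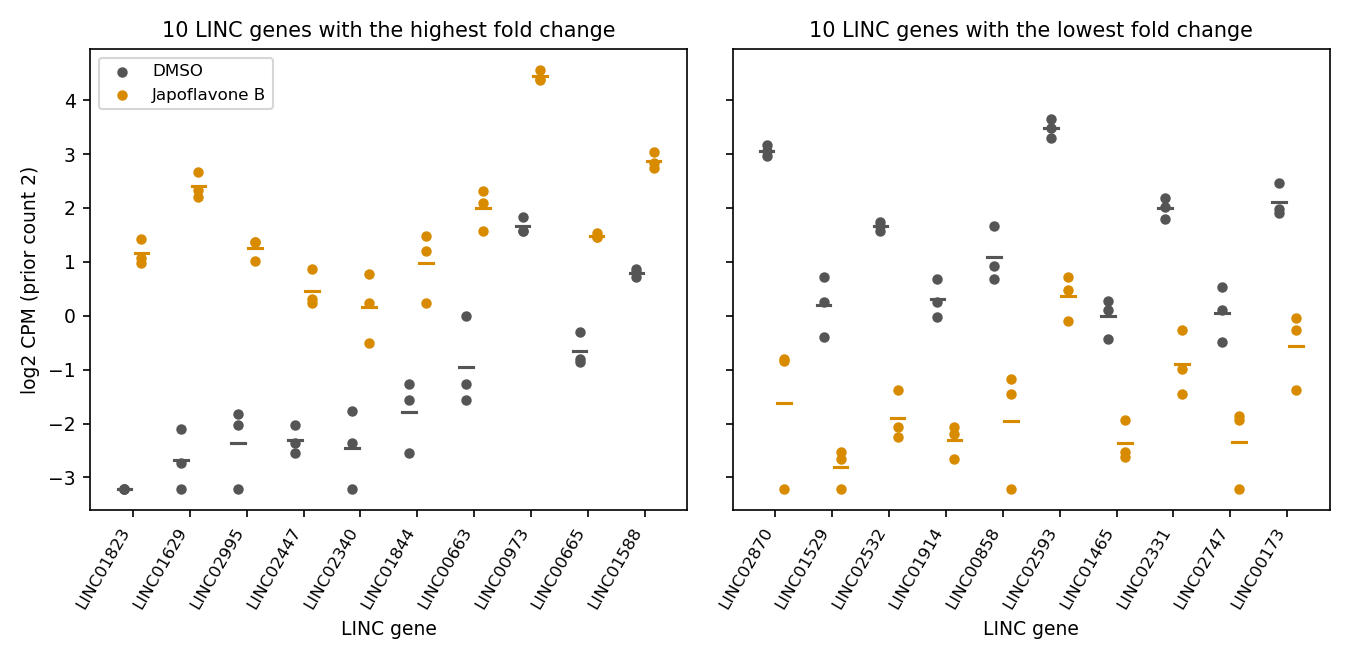
Points are log2 CPM of single libraries (prior count 2) for 10 risen and 10 fallen LINC genes, chosen as the ends of the fold change range at 0.2 FPKM or more, grey for DMSO and orange for Japoflavone B, with short lines at group means. Groups are apart in all 20 genes, and LINC01823 sits at the value of 0 counts in each DMSO library.

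Of a list of 25 LINC genes known from cancer studies, 16 were among the members. The list was matched by symbol and also holds former symbols. Among them are LINC00657, LINC01021 and LINC00152, now NORAD, PURPL and CYTOR, which are described at the end. Absence from the members is thus not a sign of low counts. Of the 16 members, 6 rose, 6 fell and 4 did not pass, where 34.7% of all genes tested rose and 35.4% fell. LINC00261, which is transcribed beside the endoderm transcription factor gene FOXA2, fell from 1.39, 1.02 and 0.9 to 0.11, 0.17 and 0.18 FPKM (log2 fold change -2.79 ± 0.25, edgeR adjusted p = 1.14e-10). LINC01116, from the chromosome 2 region of the HOXD genes, fell by 1.93 ± 0.28 log2 (0.88, 1.14 and 1.49 against 0.18, 0.45 and 0.23 FPKM; adjusted p = 6.75e-07). LINC00342 fell by 1.89 ± 0.14 log2, from 2.03, 1.91 and 1.6 to 0.48, 0.44 and 0.49 FPKM (adjusted p = 1.53e-12). In all 3 the groups were apart.

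LINC00472, LINC00707 and LINC00511, each described in studies of tumours, fell by 1.16 ± 0.14, 1.14 ± 0.15 and 0.98 ± 0.10 log2 (edgeR adjusted p = 3.97e-08, 7.13e-08 and 1.40e-09). LINC00511 had 0.92, 0.83 and 0.95 FPKM and then 0.44, 0.42 and 0.41, a narrow spread within each group. On the rising side, LINC00662 had 0.88, 0.88 and 0.87 FPKM and then 2.12, 1.83 and 1.87 (2.38-fold higher, log2 SE 0.07, adjusted p = 7.27e-15). LINC00467, whose RNA has been reported to encode a mitochondrial peptide, rose by 0.68 ± 0.12 log2, from 1.99, 1.41 and 1.46 to 2.54, 2.19 and 2.53 FPKM (adjusted p = 2.44e-05). LINC00667 rose by 0.33 ± 0.12 (adjusted p = 0.0132), a call lost with library totals as the scaling (0.23 log2, adjusted p = 0.0832) and on log2 of FPKM.

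The 4 listed members that did not pass were LINC01234, LINC00847, LINC00339 and LINC01503. LINC01234 had 2.98, 3.18 and 2.97 FPKM and then 2.84, 3.18 and 3.02, with a log2 fold change of 0.08 ± 0.08 (edgeR adjusted p = 0.327), so that the groups covered one range. LINC00847 stood at 0.29 ± 0.14 log2 (adjusted p = 0.0656), LINC00339 at -0.25 ± 0.19 (0.253) and LINC01503 at -0.47 ± 0.30 (0.162). Each was called when 1 library was left out: LINC00847 without DMSO replicate 2 (adjusted p = 0.0264), LINC00339 without Japoflavone B replicate 1 (0.0295) and LINC01503 without DMSO replicate 3 (0.0416). Besides LINC01234, the members of at least 300 counts with the smallest changes were LINC00863, LINC00887 and LINC01128, at -0.05 ± 0.18, 0.07 ± 0.21 and 0.07 ± 0.12 log2. LINC01128 is the tightest of these 3, with 0.58, 0.58 and 0.51 FPKM after DMSO and 0.54, 0.53 and 0.57 after Japoflavone B. At the count limit, LINC01275 (3, 10 and 15 counts against 11, 7 and 14) and LINC01564 (15, 3 and 6 against 13, 16 and 7) overlapped between groups and did not pass, and LINC01564 was called higher without DMSO replicate 1 (adjusted p = 0.0370).

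GENCODE 29 lists 197 of the 198 members. It classes 151 as lincRNA, of which 33 rose and 52 fell, 16 as processed transcripts (4 and 5), 14 as antisense (3 and 5) and 9 as transcribed unprocessed pseudogenes (4 and 1). It classes 2 members, LINC00672 and LINC02693, as protein-coding, and neither was called. Over all genes tested, 34.7% rose and 35.4% fell. Single-exon members numbered 17, of which 3 rose and 7 fell. Members with 2 to 3 exons in their largest transcript numbered 79 (9 rose and 26 fell), and those with 4 or more numbered 101 (33 rose and 32 fell). The median log2 fold changes of these 3 classes were -0.33, -0.27 and -0.07. The classes were not compared by a test.

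Despite the name, 123 of the 198 members overlap the span of another listed gene, 107 of them on the opposite strand, and 55 overlap one with at least 60 counts. Besides members marked as such above, these 55 include LINC00662, LINC00667, LINC01116, LINC01278, LINC01504, LINC02086 and LINC02987. Reads of overlapping genes cannot be assigned with certainty where the strand setting is not stated. Of 74 tested members that overlap none, 14 rose and 31 fell (60.8% called, median log2 fold change -0.40). Of 121 tested members with an overlap, 31 rose and 35 fell (54.5%, median -0.05). Both shares called are below the 70.0% of all genes tested (34.7% higher and 35.4% lower), a difference that was not tested.

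Members and their nearest tested protein-coding gene showed little common movement. Over 195 pairs the Spearman correlation of log2 fold changes was 0.126, a description over pairs measured in the same libraries. In 92 pairs both were called, 50 in the same direction (17 higher and 33 lower) and 42 in opposite directions. With spans that touch or overlap, 22 pairs, the correlation was 0.301 and 6 of 7 called pairs went the same way. Under 10 kb it was 0.164 (13 of 26), from 10 to 100 kb -0.025 (18 of 39), and beyond 100 kb 0.338 (13 of 20). Some coding genes, such as SAMD11, CEBPB and BOD1, are nearest to more than 1 member, so the pairs are not independent. In the last range CBLN2 is paired with both LINC02582 and LINC02864. It had only 0.167 FPKM after DMSO and 0.00333 after Japoflavone B.

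Single pairs ranged widely, and those named here were chosen after their values were seen. LINC01629 lies 58741 bases from IRF2BPL, the gene of a nuclear ubiquitin ligase, which rose from 15.6 ± 1.81 to 40.8 ± 1.63 FPKM (SD, n = 3; 1.49 log2, edgeR adjusted p = 3.18e-17). LINC01914 lies 113361 bases from PKDCC, a secreted tyrosine kinase gene, which fell from 11.4 ± 1.33 to 1.17 ± 0.180 FPKM (-3.19 log2). LINC02331 lies 98854 bases from BMP4, a growth factor gene of the TGF-beta superfamily, which fell from 4.31 ± 0.159 to 1.12 ± 0.272 FPKM (-1.85 log2). In these pairs both genes went one way. FOXA2, 2356 bases from LINC00261, fell far less than its neighbour, from 17.4 ± 0.907 to 13.7 ± 0.413 FPKM (-0.25 log2, adjusted p = 0.00334). PWWP2B, the coding gene nearest to LINC02870, moved the other way (0.40 log2), as did TSN, the gene nearest to LINC01823 (-0.28 log2).

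**Figure D5:**
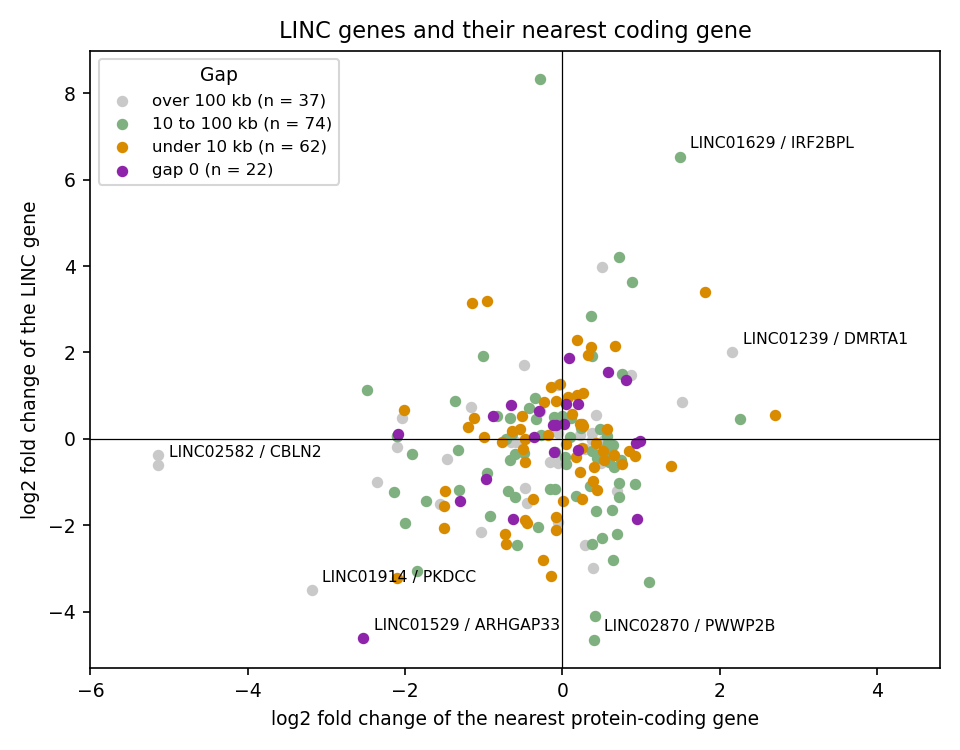
Each of 195 points is a LINC gene, with its own log2 fold change on the vertical axis and that of the nearest tested protein-coding gene on the horizontal axis, coloured by the gap between their spans. Points fill all 4 quadrants, with 50 of 92 pairs that were both called in the same-sign quadrants.

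Within 250 kb of another member lay 25 members in 10 groups. Of these groups 4 held falls only among the calls, 3 rises only, 1 both and 2 no call. The group with both is on chromosome 5, where LINC02995 rose by 4.22 log2 while LINC01942 and LINC01484, which start at 173689459 and 173707614, fell by 1.03 and 1.35 log2 (edgeR adjusted p = 0.0149 and 9.27e-04). The call of LINC01942 was lost without DMSO replicate 2 (adjusted p = 0.121) or Japoflavone B replicate 2 (0.0702). At the start of chromosome 1, LINC02593 fell by 3.21 log2 whereas LINC01409, LINC00115 and LINC01128 did not pass, at -0.19, 0.07 and 0.07 log2. None of the 4 members near CEBPB on chromosome 20, LINC01275, LINC01273, LINC01270 and LINC01271, passed (0.35, -0.41, -0.09 and -0.03 log2). LINC01273 (adjusted p = 0.0575) was called lower with library totals (0.0206), with a filter of 0.5 FPKM (0.0495), on log2 of FPKM (0.0242 to 0.0253), and without DMSO replicate 3 (0.0208) or Japoflavone B replicate 1 (0.0458).

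RefSeq start windows were matched for 137 members, of which 35 rose, 42 fell and 58 were tested without a call. The AP-1 pattern was found in 6 of 35 risen members (17.1%), 2 of 42 fallen members (4.76%), 5 of 58 without a call (8.62%) and 7.76% of all 27305 windows. The NRF2 pattern was in 10 (28.6%), 4 (9.52%) and 16 (27.6%) of them and in 13.6% of all windows. The CHR pattern was in 1 (2.86%), 5 (11.9%) and 5 (8.62%), beside 15.4% of all. CCAAT was common throughout, at 48.6%, 47.6%, 39.7% and 35.7%. The p53 half-site was in 5.71%, 2.38%, 6.90% and 6.54%. The shares of the other 5 patterns were 14.3% or less in each of these sets. For 71 of the 137 the RefSeq start lay within 100 bases of the start in the deposited table, so that many windows may not be the start used in these cells. Among the 6 risen members with an AP-1 match, that distance was 2 bases for LINC01629, 1 for LINC02762 and 1359 for LINC02995. For LINC00963, LINC00513 and LINC00973 it was 11714, 59744 and 66492 bases.

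Other long noncoding RNAs carry names of their own. Of a list of 59, 54 were tested, 22 rose and 17 fell (72.2% called, near the 70.0% of all genes tested, median log2 fold change 0.07). The 8 with the most counts are given here. NORAD, formerly LINC00657, which binds Pumilio proteins, rose from 71.0 ± 5.20 to 100.7 ± 4.57 FPKM (SD, n = 3; 0.61 log2, edgeR adjusted p = 7.99e-11). It was thus more abundant than any member. Of these 8, the small nucleolar RNA host genes GAS5, ZFAS1 and SNHG16 rose by 1.40, 1.55 and 1.68 log2 (adjusted p = 6.95e-18, 1.18e-19 and 7.17e-20). FGD5-AS1, OIP5-AS1 and TUG1 fell by 0.70, 0.84 and 0.76 log2 (adjusted p = 1.71e-12, 2.16e-13 and 1.92e-10). NEAT1, the scaffold of paraspeckles and also 1 of the 8, changed by -0.34 ± 0.08 log2 (edgeR adjusted p = 6.04e-04). Its groups overlapped, and it was not called with DESeq2 (adjusted p = 0.0618) or robust estimation (0.0840).

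Of 297 genes that RefSeq lists with a former LINC symbol, 107 were tested, 32 rose and 33 fell (60.7% called, beside 70.0% of all genes tested, median log2 fold change -0.002). That list also holds coding genes such as AGO2. It shares genes with the list of 59, among them NORAD, NEAT1 and TUG1, so these are not separate sets. PURPL and CYTOR are given here as examples and were not picked by count. PURPL, formerly LINC01021 and known as a p53-regulated RNA, rose from 2.96 ± 0.674 to 10.7 ± 0.735 FPKM (SD, n = 3; 1.94 log2, edgeR adjusted p = 1.61e-16). CYTOR, formerly LINC00152, had 1.63 ± 0.171 and 1.69 ± 0.0666 FPKM and did not pass (0.16 ± 0.09 log2, adjusted p = 0.110), but was called higher without DMSO replicate 3 (adjusted p = 0.0462).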

How the data were processed

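Poly(A) RNA of 3 DMSO and 3 Japoflavone B samples of A549 was sequenced, per the labels. Tools listed per the submitters' processing notes are HISAT2 2.0.1, cutadapt 1.9.1, DESeq2 and HTSeq 0.6.1, and the build is GRCh38, with no role or order; annotation release and strand setting are not given in the sources used here. The deposited table holds raw counts per gene as whole numbers and FPKM that the authors computed from them, the exonic gene size and the library total (recomputed values differed by at most 0.005). Exonic sizes are in bases, per the file headers.

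Groups were taken from the treatment labels. Members and lists were chosen with earlier results of these data known. Counts were filtered by filterByExpr (minimum count 10, minimum total 15; 16082 genes, 195 of 198 members), scaled by trimmed mean of M-values (0.957 to 1.04) and fitted with edgeR 4.0.16 in R 4.3.3 (quasi-likelihood, group as the single term), with Benjamini-Hochberg adjustment over all genes and a threshold of 0.05. FPKM are scaled by library totals, fold changes by the trimmed-mean factors. Each standard error (SE) is the absolute log2 fold change divided by the square root of the F statistic of that test. Tested on simulated data for this comparison (15745 genes), the test recovered 70.4% of 1.5-fold and 87.9% of 2-fold changes. It called 9 of 15548 unchanged genes. Most genes were unchanged in those data, whereas 70.0% of all genes tested were called here. These shares were not split by depth. The median standard error was 0.34 log2 in the members and 0.10 over all genes tested, and recovery in the members alone was not tested.

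Named members are 10 at each end of the fold changes among those called, with groups apart and at least 0.2 FPKM in the higher group, the 8 with the highest mean FPKM, the 4 with the smallest change among those with at least 300 counts, those at the count limit, and members of a list of 25. Neighbours are the nearest tested gene that GENCODE 29 classes as protein-coding (or does not list) by the positions of the deposited table; that class was added to the rule after the data were seen. Of the members' window sequences, 137 were found in RefSeq (GRCh38.p14). Libraries were not paired by number: deviations from group means of same-numbered libraries correlated at 0.013, -0.004 and -0.045 across genes. Alternatives were DESeq2 size factors, upper-quartile factors, library totals, 3 other filters, DESeq2 1.42.0, robust estimation, the replicate block, limma 3.58.1 on log2 of FPKM + 1 and + 0.1, stricter member rules, and each library left out.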

Additional observations from a re-analysis of the deposited data

How the results depend on the processing

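The numbers of members higher and lower stayed within 1.5 times of 45 and 66 under every alternative of scaling, test, unit and left-out library (39 to 47 and 62 to 71), with 40 to 46 and 62 to 70 when single libraries were left out. With the replicate block they were 45 and 66, with a median log2 fold change of -0.20. Same-numbered libraries did not deviate together, so the block shares a number only. A mean of at least 0.5 FPKM left 105 members tested and 25 higher and 43 lower (median -0.26), at least 300 counts left 72 and 19 and 31 (median -0.24), and members that overlap no listed gene were 14 and 31 (median -0.40), since each keeps fewer members. The member median moved from -0.21 to -0.31 with library totals, a scaling that also moved the median of all genes to -0.11, to -0.24 without a filter, and to -0.066 on log2(FPKM + 1), a scale that compresses low genes. With single libraries left out it ran from -0.27 to -0.16. Of the 45 members named by rule, 740 values under alternatives kept their side of the threshold, 7 passed it newly and 3, all of LINC00667, no longer passed (0.23, 0.13 and 0.22 log2). Of 24 tested members named after their values were seen, 390 values kept their side, 8 passed newly (LINC01273, LINC01278 and LINC02987) and 4 no longer passed (LINC01547 and LINC01942). Of 17 other genes named, ARHGAP33 not among them, the numbers were 286, 1 (CYTOR) and 2 (NEAT1). None of these values reversed a call. Depth limits the set: below 200 counts the median standard error was 0.42 log2, against 0.11 from 1000 counts on.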
